A study of Mus musculus with 80 samples.

Results

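The genes described here are 39 genes of the antioxidant and glutathione systems, picked by name from the 32764 genes of the count files. They comprise 2 regulators of the NRF2 pathway, 3 quinone, haem and epoxide enzymes, 4 enzymes of glutathione synthesis and recycling, 5 genes of the thioredoxin system, 4 superoxide dismutase and catalase genes, 3 glutathione peroxidases, 6 peroxiredoxins, 10 glutathione transferases and 2 metallothioneins. All 39 were present in the files. A filter on low counts left 36 of them for tests in BAT (without Gsta1, Gsta2 and Gstm3), 37 in iWAT (without Gsta1 and Gstm3), 39 in liver and 36 in muscle.

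As background, the transcription factor NRF2 (encoded by Nfe2l2) is held in the cytosol and marked for degradation by KEAP1. Oxidants and electrophiles relieve this hold, and NRF2 then binds antioxidant response elements and activates genes for quinone reduction, haem breakdown, glutathione synthesis and thioredoxin reduction. Hydrogen peroxide, which superoxide dismutases make from superoxide, is removed by catalase, by glutathione peroxidases at the expense of glutathione, and by peroxiredoxins at the expense of thioredoxin, whereas metallothioneins bind zinc and copper. Brown fat is rich in mitochondria, in which superoxide is formed and in which Sod2, Prdx3, Txn2 and Txnrd2 act.

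RNA was sequenced from brown fat (BAT), inguinal white fat (iWAT), liver and muscle of male mice of 4 genotypes, with 5 libraries for each tissue and genotype and 80 libraries in all. The genotypes were WT, FGF21 KO (no fibroblast growth factor 21, a metabolic hormone), UCP1 KO (no uncoupling protein 1, the proton carrier through which brown fat makes heat) and dKO, which lacks both. Each knockout was present in every tissue of the animal. All mice, controls included, were reared at 30 °C, moved to room temperature at 10 to 12 weeks of age, and given a high fat diet for 3 weeks. The labels spell the dKO as UCP1/FGF12 double KO, but Fgf21 had 0 to 3 counts per library in BAT of these mice and 7 to 10 in WT, 353 to 1728 in UCP1 KO and 0 to 2 in FGF21 KO. Ucp1 was still counted in BAT of UCP1 KO (24291 to 60779 counts) and dKO (40641 to 90118), below WT (98548 to 216085), and the source of these reads was not tested.

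Libraries held 28691377 to 50380696 counts on genes. Each tissue was checked against marker lists, scored as the mean log2(CPM + 0.1) of the list, where CPM is the usual scaling of a count to its library size, here with TMM factors within a tissue. Brown adipocyte markers scored 6.6 to 7.88 over the BAT libraries of all genotypes, hepatocyte markers at least 12.1 in liver and skeletal muscle markers at least 13.07 in muscle. Of the BAT libraries, 4 carried skeletal muscle scores above 7 (UCP1 KO 2 and dKO 1, 3 and 4) against 1.35 to 3.3 in WT. Such scores were also found in 3 iWAT libraries, WT 5 (9.57), UCP1 KO 1 (10.14) and FGF21 KO 5 (7.79), beside 0.94 to 6.12 in the other iWAT libraries. The hepatocyte score of iWAT FGF21 KO 4 was 5.41, against at most 3.92 in the rest of iWAT. Of the iWAT libraries, 9 carried lymph node scores above 4 (WT 4 and 5, UCP1 KO 2, dKO 1 and 3, and FGF21 KO 1, 3, 4 and 5), and the iWAT comparisons of UCP1 KO, the main WT levels and the depot comparisons are also given without them or with the score in the fit. In bulk tissue, fewer cells of a type and less RNA per cell cannot be told apart. Nothing in the labels links libraries to each other through a mouse, and p-values set a difference against the spread between these libraries.

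The first question was where the genes are expressed without any knockout. In WT, 38 of the 39 genes passed the filter over 20 libraries, and all 38 differed between the 4 tissues (edgeR quasi-likelihood test, adjusted p below 0.01), as did 95.6% of all genes tested. Liver was the highest tissue, with no overlap with the next one, for 20 of the 39 genes, BAT for 9 and muscle for 2, and the other 8 had overlapping top tissues. Levels below are in CPM on a scale common to the 4 WT tissues, as mean ± SD of 5 libraries, whereas levels given later for a single tissue were scaled within that tissue and are not to be set against these.

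Liver led for the glutathione makers and most transferases. Gclc, the catalytic subunit of the enzyme that limits glutathione synthesis, stood at 365 ± 80.3 CPM in liver, 28 ± 6.71 in muscle, 21.9 ± 4.10 in iWAT and 20.7 ± 1.90 in BAT, and the 3 lower tissues overlapped. Cat, which encodes catalase, followed the order liver (3908 ± 319.8 CPM), BAT (799 ± 55.5), iWAT (594 ± 112) and muscle (169 ± 19.1), with no overlap between neighbours. The transferase Gsta3 was at 1803 ± 259 CPM in liver, 51.5 ± 23.0 in iWAT, 3.98 ± 1.66 in BAT and 1.3 ± 0.573 in muscle. Gsta2 and Gstm3 were near 0 outside liver, where they reached 7.82 ± 3.27 and 49.5 ± 7.24 CPM, and Gsta1 was at 0.0889 ± 0.0268 CPM in liver and at 0 in every BAT library of WT. Without WT 4 and 5, the 3 remaining iWAT libraries held 19.0 ± 1.03 CPM of Gclc, 662 ± 46.6 of Cat and 67.5 ± 5.75 of Gsta3. The tissue that led without overlap stayed the same for all 31 genes that had one, and iWAT then led for 2 more, Sod3 and Gstm2.

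BAT led, without overlap, for Txnrd2, Txn2, Sod2, Gpx3, Gpx4, Prdx2, Prdx3, Gsta4 and Mt1. The mitochondrial superoxide dismutase Sod2 stood at 624 ± 24.9 CPM in BAT, 356 ± 27.5 in muscle, 201 ± 11.0 in liver and 82.4 ± 7.61 in iWAT, with no overlap between neighbours. Gpx3, the secreted glutathione peroxidase, ranged from 1543 ± 216 CPM in BAT through 346 ± 124 in iWAT and 254 ± 46.5 in muscle to 5.29 ± 0.818 in liver, and only iWAT and muscle overlapped. Per kilobase of exon, so that genes can be compared, Gpx3 (968 CPM per kb) and Gpx4 (621), which protects lipids from peroxidation, were the highest of the 39 genes in BAT, followed by Sod1 (450.5), Cat (306) and Prdx3 (287). The Gpx4 level is uncertain, since 48.4% of its 100-base windows also occur in Gpx4-ps2 or AC122253.3. Nqo1, a quinone reductase, was lowest in BAT, with 1.45 ± 0.180 CPM in BAT, 4.55 ± 1.35 in iWAT, 4.68 ± 0.733 in liver and 30.0 ± 2.75 in muscle. The 3 iWAT libraries of low lymph node score held 86.8 ± 5.45 CPM of Sod2, 429 ± 68.0 of Gpx3 and 5.48 ± 0.576 of Nqo1, and for Gpx3 they lay above every muscle library.

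**Figure D1:**
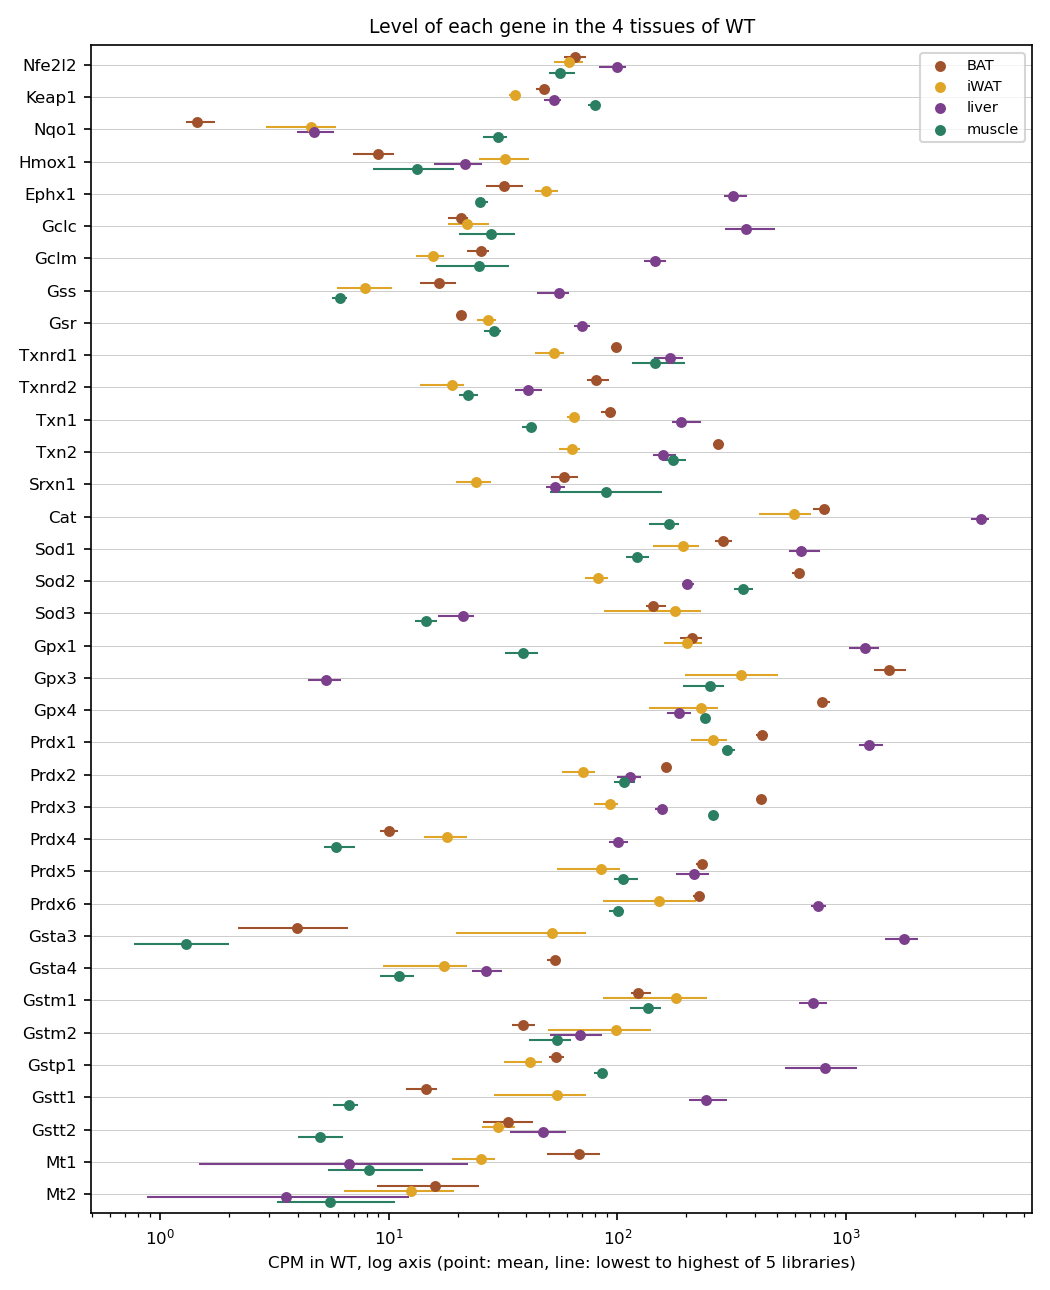
Level of 36 of the 39 genes in WT, in CPM on a log axis, with a point for the mean and a line from the lowest to the highest of 5 libraries of each tissue (Gsta1, Gsta2 and Gstm3, at or near 0 in 3 tissues, are left out). Liver points lie to the right for most glutathione transferases, as for Gsta3 at 1803 CPM, and BAT points lie to the right for the mitochondrial genes, as for Sod2 at 624 CPM.

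Between the fat depots of WT, 27 of 38 genes differed, 19 of them higher in BAT and 8 lower. Of all genes tested 60.7% differed, 28.0% higher in BAT and 32.7% lower. Among the genes higher in BAT, log2 differences of BAT over iWAT were 2.92 ± 0.0834 (SE) for Sod2, 2.19 ± 0.0725 for Prdx3, 2.12 ± 0.0838 for Txn2 and 2.10 ± 0.109 for Txnrd2. Lower in BAT were Gsta3 (-3.69 ± 0.366), Gstt1 (-1.89 ± 0.194), Hmox1 (-1.84 ± 0.222), Nqo1 (-1.65 ± 0.178), Gstm2, Prdx4, Ephx1 and Gsr. The median of all genes was -0.10 on this scale. Leaving out iWAT WT 4 and 5, which was decided after seeing the data, also gave 27 of 38 genes, 17 higher in BAT and 10 lower, beside 60.6% of all genes. Cat (0.27 ± 0.113, adjusted p = 0.0428) and Prdx6 (0.24 ± 0.0902, 0.0219) were then lost, and Gstm1 (-0.90 ± 0.106) and Sod3 (-0.66 ± 0.0983) were called lower in BAT. For Sod2 the difference was then 2.84, for Gsta3 -4.08 and for Nqo1 -1.93.

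The main comparison asked what loss of UCP1 did in BAT. Of the 36 genes tested, 7 rose and 6 fell in UCP1 KO against WT. The 7 that rose were Hmox1, Nqo1, Ephx1, Srxn1, Gss, Txnrd1 and Prdx6, with log2 changes between 0.42 and 1.83, and the 6 that fell were Gstt1, Gpx1, Gstm1, Gsta4, Txn2 and Prdx5, with changes between -1.15 and -0.29. The share called was 36.1% against 25.2% of all 15729 genes tested (13.8% higher and 11.4% lower), and the median log2 change was 0.03 over the 36 genes and 0.01 over all genes. WT and UCP1 KO libraries did not overlap for 16 of the 36 genes and for 23.5% of all genes. Genes of the system thus moved in both directions.

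In a second comparison that shares no library with the first, dKO against FGF21 KO, 10 of 36 genes were called, 3 higher (Gsta3, Hmox1 and Srxn1) and 7 lower (Gpx3, Gstt1, Mt1, Gpx1, Gstm1, Gstm2 and Txn1). Of all genes 13.5% were called, 6.74% higher and 6.80% lower. The libraries of these groups did not overlap for 14 of the 36 genes and for 18.6% of all genes. Genes called only in this second comparison are given with their values although they were chosen after those values were seen. Called in both comparisons were 5 genes, Hmox1 and Srxn1 higher and Gpx1, Gstm1 and Gstt1 lower, which is 38.5% of the first list and 50% of the second. Over all genes tested 1746 were called in both, 44.0% and 82.0% of the lists, none in opposite directions.

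**Figure D2:**
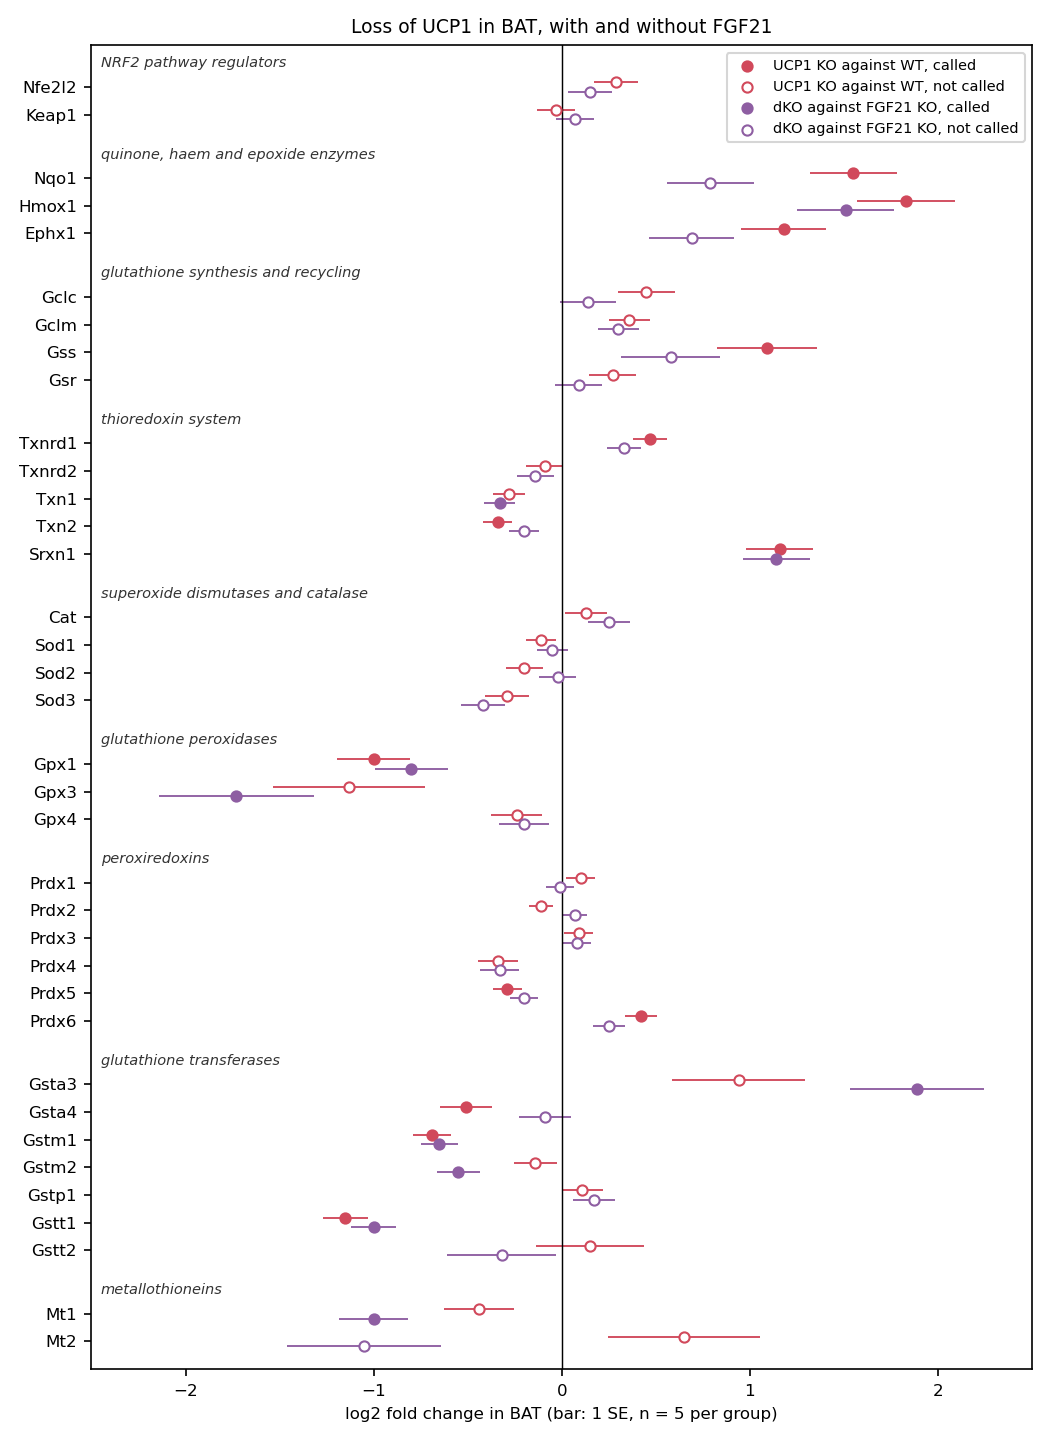
Log2 fold change of the 36 tested genes in BAT, grouped by role, for UCP1 KO against WT (red) and dKO against FGF21 KO (purple), with bars of 1 SE and 5 libraries per group; filled points were called at an adjusted p below 0.01. Hmox1 (1.83 and 1.51) and Srxn1 (1.16 and 1.14) lie to the right in both comparisons, and Gstt1 (-1.15 and -1.0) and Gpx1 (-1.0 and -0.80) lie to the left.

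Promoter sequence was available in the RefSeq table (GRCm38.p6, 250 bases before to 50 after a start) for 32 of the 39 genes. The core of the antioxidant response element, TGACNNNGC on either strand, was found in 1 window each of 8 of these 32 genes (Nfe2l2, Gclm, Txnrd1, Srxn1, Sod1, Prdx1, Gsta3 and Mt2). That is 21.1% of the 38 windows of the 32 genes, beside 12.4% of all 32851 windows. Cores of the metal response element, TGCACNC or TGCGCNC on either strand, were found in 11 of the 38 windows (28.9%), from 10 of the 32 genes, and in 25.7% of all windows. Of the 7 genes that rose in BAT of UCP1 KO, Txnrd1 and Srxn1 had a core of the first kind in their window, whereas Hmox1 and Prdx6 had no window in the table. Nqo1, Ephx1 and Gss had a window but no core of the first kind in it. A match is a run of letters and says nothing of binding. The Txnrd1 window surrounds a start that lies inside the annotated gene (10:82833951-82897712). The windows of Txnrd1 and Gsta3 are shown, up to 30 bases after the start, because both genes carry 1 antioxidant response element core (in capitals, on the minus strand in Txnrd1) and were called higher in one of the comparisons. Those of Mt1 and Mt2, which sit beside each other on chromosome 8, are shown with their metal response element cores in capitals, 3 in Mt1 and 4 in Mt2. No letters are shared between the 2 kinds of core in these windows, and the Mt2 window also holds the core TGACTCAGC from base -79, left in lower case.
Txnrd1, chr10:82858956-82859235, plus strand: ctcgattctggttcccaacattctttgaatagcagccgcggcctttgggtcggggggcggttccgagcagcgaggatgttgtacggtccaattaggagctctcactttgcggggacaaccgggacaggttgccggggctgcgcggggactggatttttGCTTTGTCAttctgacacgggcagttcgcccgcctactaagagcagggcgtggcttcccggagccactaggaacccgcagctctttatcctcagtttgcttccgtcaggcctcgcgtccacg
Gsta3, chr1:21240335-21240614, plus strand: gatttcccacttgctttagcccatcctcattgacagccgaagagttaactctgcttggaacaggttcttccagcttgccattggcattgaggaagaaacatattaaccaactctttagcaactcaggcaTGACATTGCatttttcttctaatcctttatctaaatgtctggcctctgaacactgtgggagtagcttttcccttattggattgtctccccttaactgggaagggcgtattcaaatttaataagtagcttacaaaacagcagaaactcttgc
Mt1, chr8:94178839-94179118, plus strand: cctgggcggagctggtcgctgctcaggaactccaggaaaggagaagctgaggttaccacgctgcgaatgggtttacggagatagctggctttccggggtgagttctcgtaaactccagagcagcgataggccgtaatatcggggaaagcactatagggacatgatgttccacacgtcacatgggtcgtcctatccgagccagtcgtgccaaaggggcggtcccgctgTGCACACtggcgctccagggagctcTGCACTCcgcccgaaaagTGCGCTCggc
Mt2, chr8:94172368-94172647, plus strand: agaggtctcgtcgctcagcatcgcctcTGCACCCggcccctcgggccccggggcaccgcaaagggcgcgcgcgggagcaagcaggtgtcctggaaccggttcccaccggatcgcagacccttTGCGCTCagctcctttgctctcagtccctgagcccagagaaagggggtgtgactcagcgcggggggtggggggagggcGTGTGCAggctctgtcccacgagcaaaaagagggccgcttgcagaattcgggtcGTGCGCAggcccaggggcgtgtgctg

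The regulators were not called. Nfe2l2 itself was at 68.6 ± 5.46 CPM in BAT of WT and 83.7 ± 17.9 in UCP1 KO (log2 change 0.29 ± 0.116, adjusted p = 0.0544), and Keap1 at 50.3 and 49.3 CPM (-0.03 ± 0.10, adjusted p = 0.829). In UCP1 KO the Nfe2l2 values ran from 66.8 to 108 CPM and overlapped WT (61.3 to 76.6).

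All 3 quinone, haem and epoxide enzymes rose in UCP1 KO. Of 8 macrophage genes, 6 were called higher in the same comparison, and with their mean score in the fit Hmox1 (1.21, adjusted p = 0.0109) and Ephx1 (0.92, 0.0417) were not called, whereas Nqo1 was (adjusted p = 0.00864). Hmox1, haem oxygenase 1, opens the haem ring (8:75093621-75100589 in mm10, 8.19 Mb from Ucp1 on the same chromosome). Its WT libraries held 9.77, 9.06, 7.31, 11.1 and 10.0 CPM and its UCP1 KO libraries 15.3, 37.7, 23.5, 34.8 and 57.1. In FGF21 KO it held 11.7, 12.8, 12.6, 12.0 and 10.8 CPM and in dKO 26.3, 25.7, 28.5, 49.3 and 40.7. Every library without UCP1 lay above every library with it. Hmox1 rose by 1.83 ± 0.262 on the log2 scale in UCP1 KO against WT (adjusted p = 3.89e-05) and by 1.51 ± 0.258 in dKO against FGF21 KO (adjusted p = 0.000397). Also on chromosome 8 are Prdx2 (1.67 Mb from Ucp1), Mt2 (10.87), Mt1 (10.88), Nqo1 (24.09) and Gsr (49.59). The dKO mice were bred from UCP1 KO mice, and an effect of DNA linked to the Ucp1 allele was not tested in either comparison.

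Nqo1 (8:107388225-107403206, 24.09 Mb from Ucp1) held 1.61, 1.40, 1.43, 1.82 and 1.36 CPM in WT and 2.31, 3.77, 3.77, 4.67 and 7.79 in UCP1 KO. These groups did not overlap, and the gene rose by 1.55 ± 0.232 (adjusted p = 6.27e-05). Against FGF21 KO (1.34, 1.66, 1.77, 1.31 and 1.69 CPM), dKO held 2.65, 2.38, 2.78, 2.26 and 3.32, again with no overlap, but the change of 0.79 ± 0.230 was not called (adjusted p = 0.0169). Ephx1, microsomal epoxide hydrolase, held 38.9, 40.9, 27.9, 32.8 and 28.4 CPM in WT and 41.0, 72.5, 71.5, 81.6 and 116 in UCP1 KO. UCP1 KO 1 lay close to the highest WT library and the other 4 well above it (1.18 ± 0.226, adjusted p = 0.000529). In dKO against FGF21 KO the change in Ephx1 was 0.69 ± 0.224 (adjusted p = 0.0277).

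**Figure D3:**
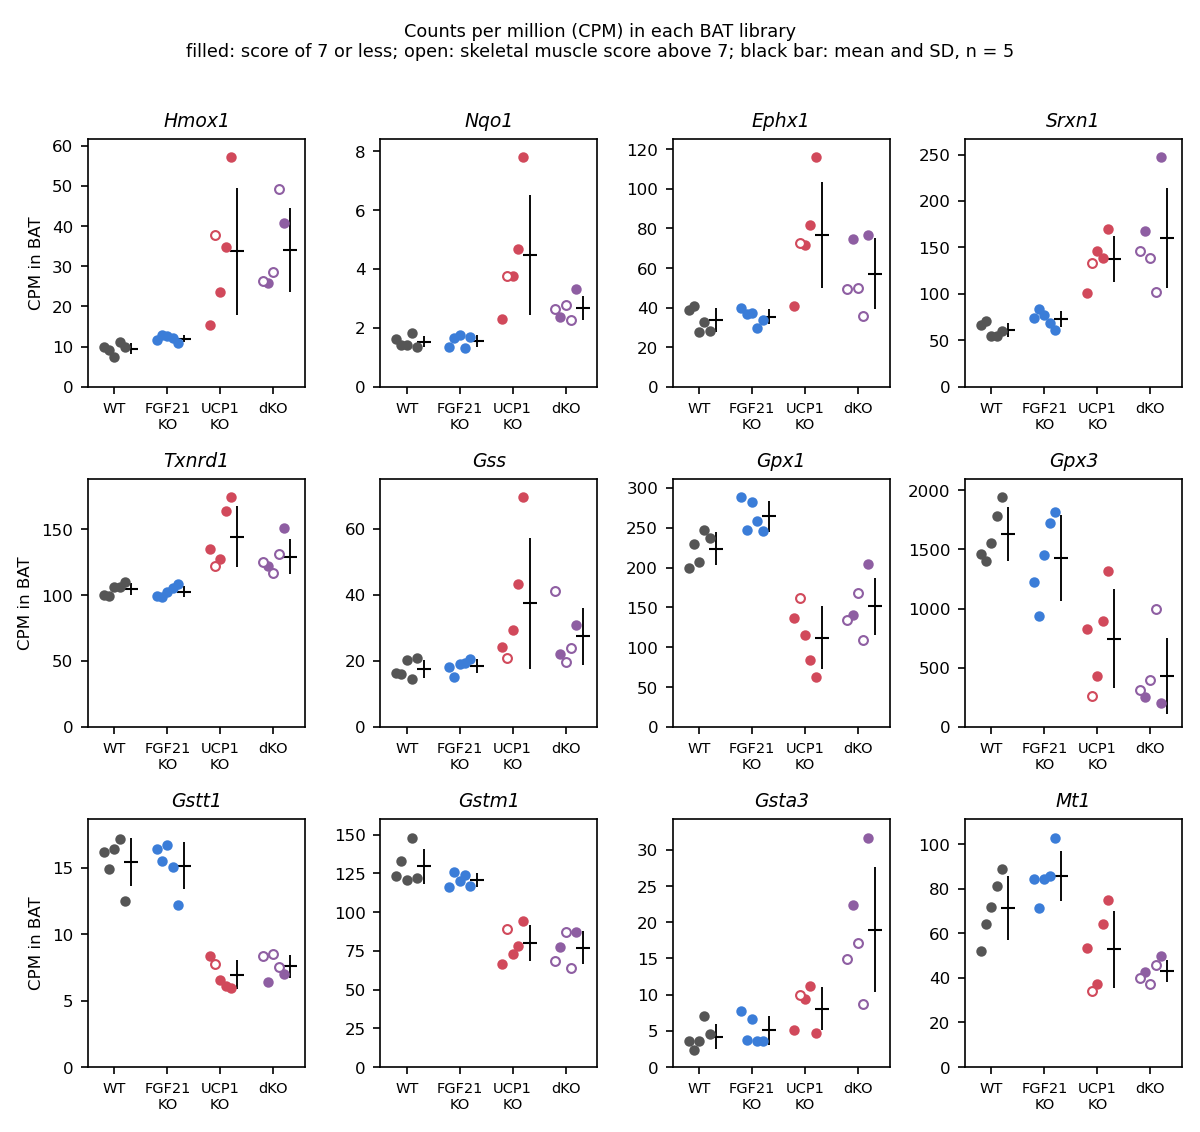
CPM of 12 genes in each BAT library of the 4 genotypes, with the mean and SD beside each group; open circles are the 4 libraries with a skeletal muscle score above 7. The UCP1 KO and dKO libraries lie above WT and FGF21 KO for Hmox1 (15.3 to 57.1 against 7.31 to 12.8 CPM) and below them for Gstt1 (5.98 to 8.53 against 12.2 to 17.2), and Gsta3 is highest in dKO (8.65 to 31.7 CPM).

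In glutathione synthesis and recycling, 1 of 4 genes rose. Gss, glutathione synthetase, held 16.2, 15.9, 20.3, 14.5 and 20.8 CPM in WT and 24.2, 20.8, 29.3, 43.2 and 69.4 in UCP1 KO. The UCP1 KO libraries spread more than 3-fold, and UCP1 KO 2 equalled the highest WT library at the printed precision. The change was 1.09 ± 0.265 (adjusted p = 0.00325), and it was not called without WT 4 or without UCP1 KO 5 (highest adjusted p 0.0107). Gclc (0.45 ± 0.151, adjusted p = 0.0241), its modifier subunit Gclm (0.36 ± 0.110, adjusted p = 0.0131) and glutathione reductase Gsr (0.27 ± 0.127, adjusted p = 0.0992) were not called, although in each the WT and UCP1 KO libraries did not overlap. No gene of this group was called in dKO against FGF21 KO.

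Members of the thioredoxin system split by gene. Srxn1, sulfiredoxin, which reactivates oxidised peroxiredoxins (2:152105516-152111376), held 66.8, 71.0, 55.0, 54.1 and 59.8 CPM in WT and 100.4, 133, 146, 139 and 169.7 in UCP1 KO. In FGF21 KO it held 73.5, 83.3, 76.9, 68.8 and 61.0 CPM and in dKO 146, 168, 139, 102 and 247. No library without UCP1 overlapped one with it, and the gene rose by 1.16 ± 0.178 (adjusted p = 7.45e-05) and by 1.14 ± 0.178 (adjusted p = 0.000174) in the 2 comparisons. Txnrd1, the cytosolic thioredoxin reductase, held 100.3, 99.3, 106, 106 and 110.0 CPM in WT and 135, 122, 127, 164 and 174 in UCP1 KO, a rise of 0.47 ± 0.0900 (adjusted p = 0.000543). In dKO against FGF21 KO its change of 0.33 ± 0.0899 just missed the threshold (adjusted p = 0.0107).

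The mitochondrial thioredoxin Txn2 went the other way, from 282, 295, 299, 275 and 308 CPM in WT to 269, 214, 233, 219 and 222 in UCP1 KO. All 5 UCP1 KO libraries lay below WT, and the fall was 0.34 on the log2 scale (SE 0.0778, adjusted p = 0.00235). Its reductase Txnrd2 was not called (-0.09 ± 0.0980, adjusted p = 0.512). The cytosolic Txn1 was called in dKO against FGF21 KO (-0.33 ± 0.0832, adjusted p = 0.00772), where FGF21 KO held 102, 96.1, 106, 109 and 107 CPM and dKO 80.5, 91.5, 88.3, 68.5 and 86.4, but its call was lost in 14 of 20 fits that left out 1 library (highest adjusted p 0.0298; kept without UCP1 KO 2, 3, 4 or 5 and without dKO 2 or 3). Against WT, Txn1 in UCP1 KO was -0.28 ± 0.0832 (adjusted p = 0.0116).

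None of the 4 superoxide dismutase and catalase genes was called in BAT. Log2 changes in UCP1 KO against WT were 0.13 ± 0.113 for Cat, -0.11 ± 0.0811 for the cytosolic Sod1, -0.20 ± 0.0983 for the mitochondrial Sod2 and -0.29 ± 0.117 for the extracellular Sod3, with adjusted p from 0.0506 to 0.388.

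Of the glutathione peroxidases, Gpx1, the widely expressed cytosolic enzyme (9:108338903-108340343), fell in both comparisons. It held 199, 229.6, 207, 247 and 237 CPM in WT and 137, 162, 115, 83.9 and 62.3 in UCP1 KO. Against 288, 247, 282, 259 and 246 CPM in FGF21 KO, dKO held 134, 141, 168, 109 and 204. Groups did not overlap in either comparison, and Gpx1 fell by 1.00 on the log2 scale (SE 0.196, adjusted p = 0.000629) and by 0.80 (SE 0.195, adjusted p = 0.00563). The second call was lost without any single FGF21 KO library or without dKO 1, 2 or 4 (highest adjusted p 0.0162). Gpx3 held 1222, 934, 1449, 1721 and 1813 CPM in FGF21 KO and 315, 249, 397, 994 and 198 in dKO. Only dKO 4 lay above the lowest FGF21 KO library. Gpx3 was called there (-1.73 ± 0.411, adjusted p = 0.00486), was lost without dKO 1, 2, 3 or 5 or FGF21 KO 4 or 5 (highest adjusted p 0.0148), and in UCP1 KO against WT was -1.13 ± 0.404 (adjusted p = 0.0326). Gpx4 was not called in either (-0.24 ± 0.134 and -0.20 ± 0.134).

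Among the 6 peroxiredoxins, Prdx6, which also acts on phospholipid peroxides, rose and the mitochondrial and peroxisomal Prdx5 fell in UCP1 KO. Prdx6 held 246, 254, 227, 230.1 and 242 CPM in WT and 326, 271, 339.7, 380.5 and 281 in UCP1 KO, with no overlap (0.42 ± 0.0857, adjusted p = 0.000970). Prdx5 held 234, 251, 253, 246 and 255 CPM in WT and 239, 197, 216, 194 and 169 in UCP1 KO, with 1 library inside the WT range (-0.29 ± 0.0762, adjusted p = 0.00556). That call was lost in 7 of 20 fits that left out 1 library, namely WT 2, 3, 4 or 5 or UCP1 KO 2, 4 or 5 (highest adjusted p 0.0184). The others were Prdx1 (0.10), Prdx2 (-0.11), Prdx3 (0.09) and Prdx4 (-0.34), none of them called, and no peroxiredoxin was called in dKO against FGF21 KO.

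Of the 7 glutathione transferases tested in BAT, 3 fell in UCP1 KO and none rose. Gstt1, of the theta class (10:75783813-75798584), held 16.2, 14.9, 16.4, 17.2 and 12.5 CPM in WT and 8.40, 7.77, 6.56, 6.09 and 5.98 in UCP1 KO. In FGF21 KO it held 16.4, 15.5, 16.7, 15.1 and 12.2 CPM and in dKO 8.35, 6.44, 8.53, 7.54 and 7.04. All 10 libraries without UCP1 lay below all 10 with it, and Gstt1 fell by 1.15 (SE 0.118, adjusted p = 1.58e-06) and by 1.00 (SE 0.118, adjusted p = 1.08e-05) on the log2 scale. It had the smallest adjusted p of the 36 genes in both comparisons.

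Gstm1, of the mu class (3:108012255-108017973), held 123, 133, 121, 148 and 122 CPM in WT and 66.4, 89.3, 72.7, 78.3 and 94.3 in UCP1 KO. FGF21 KO held 116, 126, 120.3, 124 and 117 CPM and dKO 68.6, 77.7, 87.2, 63.8 and 87.1. Groups did not overlap, and Gstm1 fell by 0.69 (SE 0.0993, adjusted p = 4.24e-05) and by 0.65 (SE 0.0993, adjusted p = 0.000142). Of windows of 100 bases in its transcripts 7.73% also occur in Gstm3, Gstm2-ps1 or Gm8834. Gsta4, which conjugates the lipid aldehyde 4-hydroxynonenal, held 57.7, 59.0, 52.0, 58.4 and 53.1 CPM in WT and 53.1, 37.3, 44.1, 35.8 and 26.1 in UCP1 KO (-0.51 ± 0.139, adjusted p = 0.00675). This call was lost without any single WT library, without UCP1 KO 2, 4 or 5 or without FGF21 KO 1, 2 or 3 (highest adjusted p 0.0185), and in dKO against FGF21 KO the change was -0.09 ± 0.138.

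Called in dKO against FGF21 KO but not in UCP1 KO against WT were Gsta3 and Gstm2. Gsta3 held 7.80, 3.79, 6.68, 3.56 and 3.63 CPM in FGF21 KO and 14.9, 22.4, 17.2, 8.65 and 31.7 in dKO, with no overlap (1.89 ± 0.356, adjusted p = 0.000910). In WT it held 3.59, 2.32, 3.6, 6.99 and 4.52 CPM and in UCP1 KO 5.18, 9.90, 9.41, 11.2 and 4.67 (0.94 ± 0.354, adjusted p = 0.0405). Gstm2 held 40.6, 39.9, 41.2, 34.7 and 37.7 CPM in FGF21 KO and 24.4, 28.1, 29.1, 24.6 and 26.1 in dKO (-0.55 ± 0.115, adjusted p = 0.00195), while its UCP1 KO libraries ran from 25.9 to 46.9 across the WT range of 36.8 to 46.0. Gstp1 and Gstt2 were called in neither comparison in these fits, and 52.8% of the 100-base windows of Gstp1 also occur in Gstp2 or a pseudogene, so that its counts are uncertain.

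Of the 2 metallothioneins, Mt1 was called in dKO. Mt1 held 84.5, 71.3, 84.5, 85.8 and 103 CPM in FGF21 KO and 39.8, 42.7, 37.1, 45.9 and 49.8 in dKO, a fall of 1.00 on the log2 scale with no overlap (SE 0.185, adjusted p = 0.000809). In UCP1 KO against WT it was -0.44 ± 0.184 (adjusted p = 0.0634). Mt2 was not called in either comparison (0.65 ± 0.405 in UCP1 KO and -1.05 ± 0.408 in dKO), and its UCP1 KO libraries ran from 9.39 to 58.2 CPM.

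Whether FGF21 bears on these differences was asked by 3 further comparisons in BAT. Of the 36 genes, 0 were called in UCP1 KO against dKO (0.0636% of all genes), 0 in FGF21 KO against WT (0% of all genes) and 0 in the interaction of the 2 losses (0% of all genes). At an unadjusted p under 0.05 the counts were 10, 1 and 5, beside 12.9%, 8.55% and 5.37% of all genes. DESeq2 called 0 in each, beside 0.356%, 0.191% and 0.00636% of all genes. In UCP1 KO against dKO, Gstm2 came closest (0.49 ± 0.115, adjusted p = 0.0982) and was called without UCP1 KO 1 (adjusted p = 0.00311). Gsta3 was at -1.23 ± 0.346 (adjusted p = 0.194) and Nqo1 at 0.73 ± 0.224 (adjusted p = 0.214). A gene called in one of the UCP1 comparisons and not in the other is therefore not shown to differ between them.

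Markers of other cells moved with the loss of UCP1 in BAT. Of 8 macrophage genes, 6 were called higher in UCP1 KO against WT (Cd68, the lysosomal marker, by 1.81) and 1 in dKO against FGF21 KO, and the macrophage score was 3.61 to 3.9 in WT, 3.45 to 4.09 in FGF21 KO, 3.91 to 5.43 in UCP1 KO and 3.59 to 4.41 in dKO. When the fit took this score as a covariate, which was decided after seeing the data, 5 genes were called in UCP1 KO against WT (Gstm1, Gstt1, Nqo1, Prdx6 and Srxn1) and 7.20% of all genes. Hmox1 was then at 1.21 ± 0.302 (adjusted p = 0.0109), Ephx1 at 0.92 ± 0.301 (0.0417), Txnrd1 at 0.39 ± 0.124 (0.0376) and Gpx1 at -1.0 ± 0.275 (0.0186). Also lost were Gss (0.90 ± 0.381, 0.109), Txn2 (-0.24 ± 0.104, 0.118), Gsta4 (-0.36 ± 0.181, 0.183) and Prdx5 (-0.17 ± 0.0974, 0.232). In dKO against FGF21 KO, 9 of the 10 calls remained with that covariate, beside 10.9% of all genes, with Hmox1 among them (1.29 ± 0.236, adjusted p = 0.000985). The part of macrophage RNA in these changes was not tested beyond these fits.

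Skeletal muscle markers were also higher, 5 of 10 called in UCP1 KO against WT and 0 of 10 in dKO against FGF21 KO, where the lowest adjusted p of the list was 0.0189. With the muscle score as a covariate, 12 genes and 21.3% of all genes were called in UCP1 KO against WT, and in dKO against FGF21 KO 6 (Gsta3, Gstm1, Gstt1, Hmox1, Srxn1 and Txnrd1) and 8.14% of all genes. Without the 4 libraries with muscle scores above 7, the counts were 12 and 9, beside 25.0% and 12.1% of all genes. Only dKO 2 and dKO 5 then stood for dKO, and dKO 4, the highest dKO library for Gpx3, was left out. In UCP1 KO against WT, Gsta4 (-0.47, adjusted p = 0.0245 with the covariate and -0.50, 0.0133 without the libraries) and Prdx5 (-0.30, 0.0131 and -0.28, 0.0163) lost their calls in both fits, Gclc was gained with the covariate (0.00631) and Txn1 without the libraries (0.00102). In dKO against FGF21 KO, Txnrd1 was gained with the covariate (0.00680), and Ephx1 (0.00550), Gclm (0.00504) and Gstp1 (0.00414) without the libraries. Hmox1, Srxn1, Gsta3, Gstm1 and Gstt1 were called in dKO against FGF21 KO in both of these fits. Called in neither were Gpx1 (-0.90, adjusted p = 0.0118 with the covariate and -0.62, 0.0545 without the libraries), Gstm2 (-0.52, 0.0162 and -0.52, 0.0311), Mt1 (-0.76, 0.0158 and -0.89, 0.0125) and Txn1 (-0.36, 0.0182 and -0.22, 0.0615). Gpx3 was called only without those libraries (-2.67, against -1.58 and adjusted p = 0.0584 with the covariate). Of 8 hepatocyte genes, 0 were called in UCP1 KO against WT and 1 (Hpx, 1.24) in dKO against FGF21 KO, where the list's median was 1.23 and the scores were 2.1 to 2.65 in dKO and 0.49 to 2.46 in FGF21 KO. Of 7 lymph node genes tested, 0 and 1 (Cd3e, 1.61) were called, with scores of -1.59 to 0.45 in dKO and -1.56 to -1.02 in FGF21 KO. The part of such cells in the dKO changes, that of the liver-high Gsta3 included, was not tested. Of adipocyte genes, Adipoq (-1.15) and Cfd (-2.25) were called lower in UCP1 KO, and of 6 brown adipocyte genes only the cytochrome oxidase subunit Cox8b (-0.74). All 3 were also called lower in dKO against FGF21 KO, Adipoq at -1.01, Cfd at -2.6 and Cox8b at -0.59, the only ones of the 12 genes of these lists.

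The wider pathway was covered by 7 lists of 107 genes outside the 39, of which 106 were found in the files. In BAT, 97 were tested, of which 34 were called in UCP1 KO against WT, 23 higher and 11 lower, and 18 in dKO against FGF21 KO, 13 higher and 5 lower. These are 35.1% and 18.6%, beside 25.2% and 13.5% of all genes. The 7 lists were chosen with earlier results of these data known, so the shares are not an independent test. By list, UCP1 KO against WT called 5 of 10 NRF2 partners and regulators, all higher, 9 of 17 further NRF2 targets and detoxification genes (8 higher), 7 of 16 genes of glutathione turnover and transport (4 higher), 7 of 20 other peroxidases and thiol reductases (3 higher), 5 of 16 other transferases (3 higher), 1 of 12 genes of NADPH supply (lower) and 0 of 6 of metal and iron handling. In the same order, dKO against FGF21 KO called 1 of 10 (higher), 5 of 17 (all higher), 5 of 16 (all higher), 2 of 20 (both lower), 2 of 16 (both lower), 2 of 12 (1 higher and 1 lower) and 1 of 6 (higher). The first list holds regulators that may act for or against NRF2, so its counts give no direction of NRF2 activity.

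The largest called rise was that of Slc7a11, the cystine carrier that feeds glutathione synthesis, from 2, 0, 0, 1 and 4 counts in the WT libraries to 23, 74, 123, 96 and 91 in UCP1 KO. FGF21 KO had 3, 1, 3, 0 and 0 counts and dKO 51, 114, 102, 53 and 180, and the fitted log2 changes of 5.21 ± 0.628 and 5.74 ± 0.626 depend on the prior count at such low levels. Cth, cystathionine gamma-lyase, which makes cysteine, went from 1.58, 1.33, 1.47, 1.79 and 1.59 CPM in WT to 7.67, 8.57, 12.8, 13.3 and 8.72 in UCP1 KO (2.72 ± 0.205, adjusted p = 4.30e-08). Chac1, which degrades glutathione, went from 1.16, 1.76, 1.12, 0.976 and 0.753 to 4.21, 11.1, 13.4, 15.9 and 15.9 CPM (3.40 ± 0.414). Both were also called in dKO against FGF21 KO, Cth at 2.49 ± 0.202 and Chac1 at 2.97 ± 0.402.

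The carbonyl reductase Cbr3 held 2.31, 2.46, 1.99, 2.54 and 2.95 CPM in WT and 9.68, 11.7, 28, 48.3 and 69.3 in UCP1 KO (3.77 ± 0.482), and Osgin1 rose by 2.57 ± 0.340. Among called pathway genes, the 5 with the largest falls were Txnip, which binds and inhibits thioredoxin (-0.62 ± 0.138), Gstk1 (-0.59 ± 0.0963), Gstz1 (-0.59 ± 0.147), glutaredoxin Glrx (-0.51 ± 0.144) and Idh2, the mitochondrial NADP isocitrate dehydrogenase (-0.46 ± 0.120). In dKO against FGF21 KO all of these 5 except Glrx (adjusted p = 0.113) were called lower again, and none of the 101 pathway genes tested in iWAT was called in UCP1 KO against WT.

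In iWAT no gene of the 39 passed the test. The counts called were 0 of 37 in UCP1 KO against WT (0.610% of all genes), in dKO against FGF21 KO (0.0115%), in UCP1 KO against dKO (0.466%), in FGF21 KO against WT (0.00575%) and in the interaction (0%). At an unadjusted p under 0.05 they were 13, 3, 10, 10 and 1, beside 14.7%, 8.62%, 14.2%, 17.4% and 9.98% of all genes. DESeq2 called 3 in UCP1 KO against WT (Prdx3, Sod2 and Txnrd2; 3.43% of all genes), 3 in UCP1 KO against dKO (Gstt2, Keap1 and Prdx3; 3.08%), 1 in FGF21 KO against WT (Gstt2; 0.242%), and 0 in dKO against FGF21 KO (0.0115%) and in the interaction (0.357%).

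The iWAT genes named here were chosen after their values were seen. Txnrd2, the mitochondrial thioredoxin reductase, held 34.1, 34.9, 32.2, 30.7 and 22.4 CPM in WT and 45.2, 34.1, 71.6, 65.0 and 85.2 in UCP1 KO. It held 24.1, 37.1, 17.8, 23.0 and 20.1 CPM in FGF21 KO and 22.9, 35.3, 26.1, 37.7 and 44.2 in dKO. Within each genotype the libraries with lymph node scores above 4 were the lower ones, UCP1 KO 2 among them. The difference of UCP1 KO over WT was 0.96 ± 0.247 (adjusted p = 0.0444) and passed the threshold without UCP1 KO 2 (1.11, adjusted p = 0.00866).

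Prdx3, the mitochondrial peroxiredoxin, held 153, 165, 157, 156 and 129.8 CPM in WT and 267, 157, 317, 334 and 463 in UCP1 KO (1.01 ± 0.274, adjusted p = 0.0558). Sod2 held 144, 148, 131, 133 and 118 CPM in WT and 265, 142, 340.0, 312 and 475 in UCP1 KO (1.19 ± 0.326, adjusted p = 0.0610). Txn2 held 111, 109, 107, 102 and 91.3 CPM in WT and 151, 99.5, 180.5, 154 and 204 in UCP1 KO (0.60 ± 0.183, adjusted p = 0.0933). In all 3 genes 4 of 5 UCP1 KO libraries lay above every WT library and UCP1 KO 2 did not. Over dKO, Prdx3 was at 1.10 ± 0.274 (adjusted p = 0.0430) and Gstt2 at 0.68 ± 0.172 (adjusted p = 0.0451), and without UCP1 KO 2 Prdx3 (adjusted p = 0.00680), Gstt2 (0.00812) and Txn2 (0.00988) passed.

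Gstt2, a theta class transferase, and Keap1 are given for their DESeq2 calls. Gstt2 held 41.1, 52.2, 49.1, 59.9 and 44.0 CPM in WT, 60.4, 34.2, 50.8, 48.7 and 53.8 in UCP1 KO, 27.6, 34.6, 20.7, 34.4 and 28.3 in FGF21 KO and 28.5, 33.8, 22.3, 38.7 and 31.6 in dKO. All FGF21 KO libraries lay below all WT libraries, and UCP1 KO overlapped dKO in UCP1 KO 2 alone. In FGF21 KO against WT its difference was -0.76 ± 0.172 (adjusted p = 0.190). Only 1 FGF21 KO library and 3 WT libraries had lymph node scores of 4 or less. With that score in the fit, 0 of 37 genes were called in FGF21 KO against WT, beside 1 of 17380 genes. Keap1 held 60.0, 54.6, 56.5, 59.9 and 60.4 CPM in WT, 67.0, 60.4, 71.0, 64.7 and 62.9 in UCP1 KO, 52.9, 58.4, 43.4, 51.1 and 53.3 in FGF21 KO and 51.6, 54.8, 54.3, 57.3 and 54.3 in dKO. UCP1 KO lay above dKO in all 5 libraries (0.26 ± 0.0735, adjusted p = 0.0718).

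**Figure D4:**
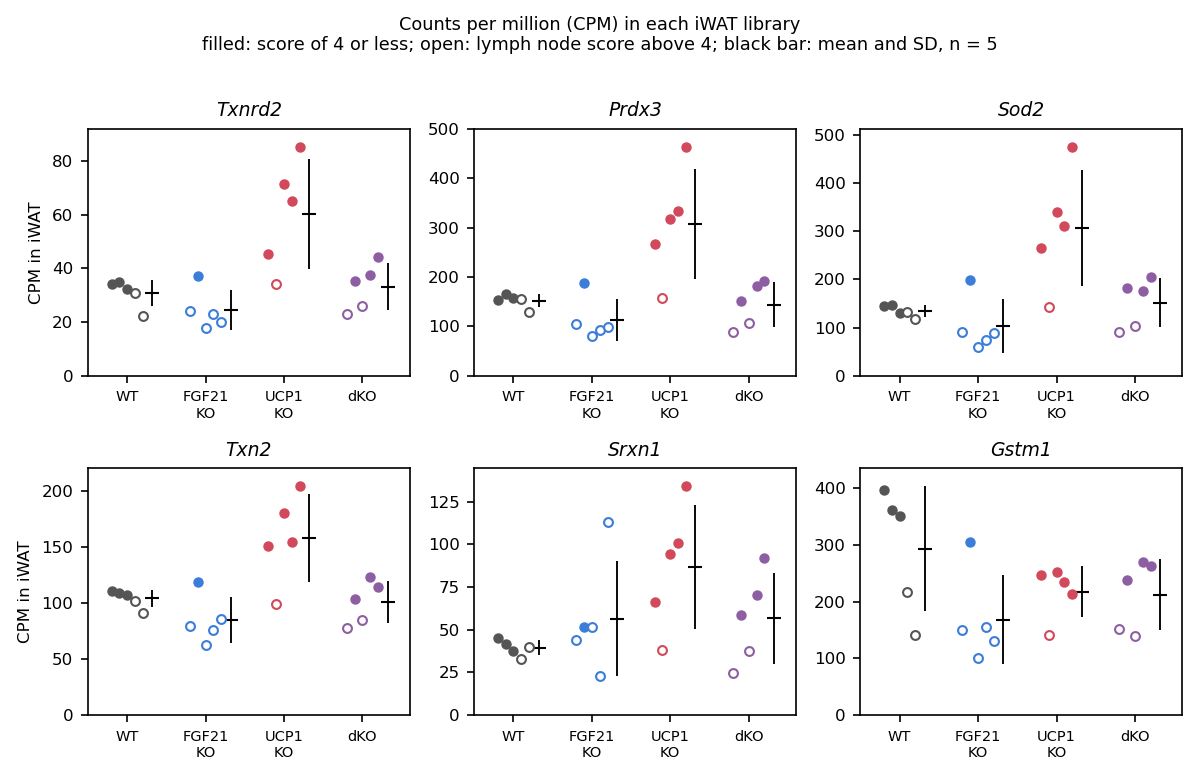
CPM of 6 genes in each iWAT library of the 4 genotypes, with the mean and SD beside each group; open circles are the 9 libraries with a lymph node score above 4. Among filled circles the UCP1 KO libraries lie above the WT libraries for Txnrd2 (45.2 to 85.2 against 32.2 to 34.9 CPM) and below them for Gstm1 (213 to 252 against 352 to 398).

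When the fit took up the lymph node score, 5 genes were called in UCP1 KO against WT, Txnrd2 (0.77 ± 0.146), Prdx3 (0.76 ± 0.162) and Sod2 (0.88 ± 0.190) higher and Gstm1 (-0.60 ± 0.125) and Prdx4 (-0.34 ± 0.0564) lower, beside 4.74% of all genes. With the 11 libraries of low lymph node score alone (3 WT, 4 UCP1 KO, 3 dKO and 1 FGF21 KO), 7 of 36 genes were called, Sod2, Prdx3, Srxn1, Txnrd2, Txn2 and Prdx2 higher and Gstm1 lower, beside 4.10% of all genes. Against dKO the covariate gave 4 genes, all higher, Prdx3 (0.96 ± 0.159), Sod2 (0.84), Txnrd2 (0.72) and Txn2 (0.54), beside 4.28% of all genes. The low-score libraries gave no call, beside 1.07% of all genes, at differences of 0.95 for Prdx3 (adjusted p = 0.0142), 0.86 for Sod2 (0.0208), 0.75 for Txnrd2 (0.0367) and 0.57 for Txn2 (0.0186). With the skeletal muscle score in the fit, 0 of 37 genes were called in UCP1 KO against WT (0.627% of all genes; Txnrd2 at 0.98, adjusted p = 0.0389) and 0 in UCP1 KO against dKO (0.328%; Prdx3 at 1.13, 0.0522). Without the 3 iWAT libraries of high muscle score, which was decided after seeing the data, the counts were again 0 (0.226% of all genes; Txnrd2 at 0.96, adjusted p = 0.0796) and 0 (0.261%; Prdx3 at 1.14, 0.0826). Brown adipocyte markers moved with these genes, with scores of 3.73 to 5.89 in UCP1 KO, 1.66 to 2.71 in WT, 1.31 to 3.22 in dKO and 0.54 to 2.51 in FGF21 KO, 3 of 5 tested markers called higher in UCP1 KO, and Zic1 below the filter. Ucp1 itself had 3942 to 20264 counts in iWAT of UCP1 KO and 109 to 776 in WT. The part of these cells in the changes was not tested.

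Whether the response to UCP1 loss differed between the depots was tested in a fit of all 40 fat libraries, and 6 of 37 genes were called, beside 6.19% of all genes. Ephx1 (1.32 ± 0.270, adjusted p = 0.000966) and Nqo1 (1.72 ± 0.364, adjusted p = 0.00137) rose in BAT by more than they changed in iWAT. Of 8 macrophage genes, 6 were called higher in UCP1 KO against WT in BAT and 0 in iWAT. The part of macrophage RNA in the depot differences was not tested. In iWAT, Nqo1 was at 7.78, 9.44, 9.55, 5.72 and 4.75 CPM in WT and 9.13, 4.03, 6.64, 6.34 and 7.11 in UCP1 KO, and Ephx1 was at -0.14 ± 0.134, so the 2 groups overlapped for both. The difference, BAT minus iWAT, was negative for Sod2 (-1.36 ± 0.328, adjusted p = 0.00473), Txnrd2 (-1.03 ± 0.251, 0.00518), Txn2 (-0.92 ± 0.186, 0.000901) and Txn1 (-0.62 ± 0.152, 0.00546). In all 4 the change had opposite signs in the depots, with log2 values in BAT and iWAT of -0.20 and 1.19 for Sod2, -0.09 and 0.96 for Txnrd2, -0.34 and 0.60 for Txn2 and -0.28 and 0.35 for Txn1, and of these only Txn2 in BAT was called within a depot. All of these except the cytosolic Txn1 encode mitochondrial proteins. Hmox1 (0.67 ± 0.507) and Srxn1 (0.05 ± 0.427), both called in BAT and not in iWAT, were not called here, so their responses are not shown to differ between the depots.

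**Figure D5:**
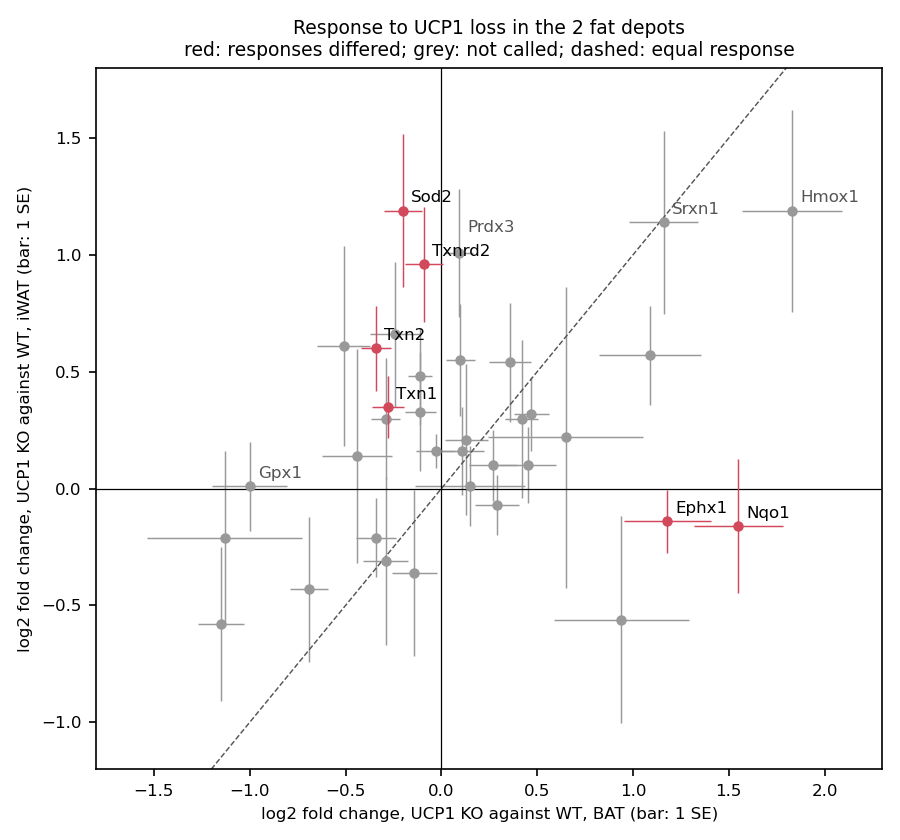
Log2 fold change of UCP1 KO against WT in BAT (x axis) and in iWAT (y axis) for 36 genes, with bars of 1 SE and 5 libraries per group; red marks the 6 genes whose responses were called different. Ephx1 and Nqo1 lie to the right near an iWAT change of 0 (-0.14 and -0.16), and Sod2 and Txnrd2 lie high near a BAT change of 0 (-0.20 and -0.09).

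Calls in the joint fit held in every fit that left out 1 library for Ephx1, Nqo1 and Txn2. Sod2 was lost without iWAT UCP1 KO 3 or 5 or BAT UCP1 KO 5 (highest adjusted p 0.0152), Txn1 without iWAT UCP1 KO 4, BAT UCP1 KO 4 or BAT WT 4 or 5 (0.0133), and Txnrd2 without iWAT WT 5, iWAT UCP1 KO 3 or 5, BAT WT 2 or BAT UCP1 KO 4 or 5 (0.0160). All 6 were also called when the fit held the lymph node score, with Prdx2 (-0.39) and Prdx3 (-0.64) added, beside 12.4% of all genes. Without the 9 iWAT libraries of high score, an alternative decided on after seeing the data, 12 of 36 genes were called, beside 12.5% of all genes. These were the 6 (Sod2 at -1.52, Ephx1 at 1.37), with Prdx2 (-0.59), Prdx3 (-1.05), Prdx5 (-0.50), Gpx4 (-0.83), Gsta3 (1.84) and Gsta4 (-1.08). Without the 4 BAT libraries of high muscle score, also chosen after seeing the data, 6 of 37 were called, beside 5.31% of all genes, with Gpx1 (-1.17) in place of Sod2 (-1.33, adjusted p = 0.0137). Without the 3 iWAT libraries of high muscle score, also chosen after seeing the data, 5 were called, beside 5.36% of all genes, and Sod2 was lost (-1.40, adjusted p = 0.0102). With the muscle score in the fit 5 were called, beside 5.73%, and Txnrd2 was lost (-0.95, adjusted p = 0.0104).

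In liver and muscle none of the genes was called. In UCP1 KO against WT the counts were 0 of 39 in liver (0.0694% of all genes) and 0 of 36 in muscle (0.0265%), with 4 and 1 genes at an unadjusted p under 0.05, beside 10.2% and 9.81% of all genes. Over all 4 genotypes they were 0 in liver (0.340% of all genes) and 0 in muscle (0.0860%), with 7 and 6 at an unadjusted p under 0.05, beside 11.6% and 16.3% of all genes. DESeq2 called 0 in UCP1 KO against WT in liver (0.777% of all genes) and in muscle (0.172%). Over all 4 genotypes it called Gsta1 and Gsta2 in liver, beside 1.34% of all genes, and Gsta3 in muscle, beside 2.4%.

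These 3 alpha class transferases are given because of that call, after their values were seen. Gsta2 in liver held 5.31, 10.3, 4.16, 5.38 and 4.80 CPM in WT, 2.74, 10.5, 5.18, 4.22 and 11.1 in UCP1 KO, 5.56, 8.90, 5.17, 5.12 and 3.44 in FGF21 KO, and 16.6, 84.4, 7.74, 5.81 and 23.8 in dKO (adjusted p = 0.0527 over the 4 genotypes). The dKO libraries ran 14.5-fold from lowest to highest and overlapped the others. Gsta1 in liver held 0.0537, 0.0894, 0.0569, 0.0491 and 0.0922 CPM in WT, 0.0966, 0.467, 0.598, 0.234 and 0.735 in UCP1 KO, 0.115, 0.341, 0.0509, 0 and 0.0805 in FGF21 KO and 0.529, 3.25, 0.207, 0.216 and 0.636 in dKO (adjusted p = 0.0514), and 81.8% of its 100-base windows also occur in Gsta2 or close copies, so that their counts cannot be told apart with certainty. In muscle, Gsta3 held 0.733, 0.835, 0.639, 1.65 and 1.49 CPM in WT and 1.37, 1.72, 1.99, 2.21 and 3.94 in FGF21 KO. UCP1 KO held 0.669, 1.12, 0.85, 0.548 and 0.712, and dKO 0.583, 1.45, 2.4, 1.65 and 1.91 (adjusted p = 0.0724 over the 4 genotypes). Hepatocyte scores of the muscle libraries spanned 0.85 to 4.34 for FGF21 KO, 0.16 to 2.12 for dKO, -0.11 to 1.22 for WT and 0.07 to 1.05 for UCP1 KO. FGF21 KO 5 had the highest score, the highest Gsta3 level and 14 counts of the liver-high Gstm3. The part of liver RNA in the muscle Gsta3 levels was not tested. Among the other genes of liver, Gss came closest in UCP1 KO against WT (0.39 ± 0.103, adjusted p = 0.111), with 34.3, 43.4, 41.6, 46.8 and 46.3 CPM in WT and 45.6, 60.6, 55.7, 56.1 and 59.7 in UCP1 KO.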

How the data were processed

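RNA was sequenced from BAT, iWAT, liver and muscle of 4 genotypes, 5 libraries each. Reads had been mapped by the authors to mm10 using STAR with UCSC known genes and summed per gene using HTSeq, and the values deposited are raw counts. The strand setting of the counting is not given in the sources used here. The 1 row naming no gene held at most 3.42e-05% of a library and was left out, which left 32764 genes. Depth was 28691377 to 50380696 counts.

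Genes were kept within a tissue when their highest count was above 15, their sum above 75 and at most 10 libraries were at 0. Each tissue was fitted with edgeR 4.0.16 (R 4.3.3, TMM, quasi-likelihood F test) over its 20 libraries. Further fits took the 40 fat libraries and the 20 WT libraries. P-values were adjusted over all genes tested by the Benjamini-Hochberg method, and a gene was called at an adjusted p below 0.01. Values after ± are SD for levels and SE for log2 changes. Alternatives were DESeq2 1.42.0, RLE factors, other filters, a threshold of 0.05, marker scores as covariates and leaving out each library. The macrophage covariate and the removal of libraries with muscle RNA, and of those with lymph node RNA from the joint and WT fits, were chosen after seeing the data. The fits were tested on simulated counts.

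The 39 genes and all lists were chosen with earlier results of these data known. Every member was reported. The rule gave values of every library for members called by edgeR in UCP1 KO against WT or dKO or FGF21 KO against WT in either fat, or over 4 genotypes in liver and muscle, and only UCP1 KO against WT in BAT had such calls. Members called in dKO against FGF21 KO in BAT, and the members of iWAT, liver and muscle given by library, lie outside the rule and were picked with their values known. Of pathway genes, the 5 with the largest called rise and the 5 with the largest called fall in BAT were named. Positions are those of GENCODE vM21 (GRCm38, the assembly of mm10), and promoters those of RefSeq. Replicate numbers follow the order of the accessions and pair nothing. Mice are not linked across libraries by the labels.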

Additional observations from a re-analysis of the deposited data

Results flagged for a closer look

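Of 104 groups of 5 libraries tested for a library standing apart (Dixon's critical value 0.71), 5 had one, and chance flags about 1 in 20. In BAT these were Gpx3 in dKO 4, at 994 CPM beside 198 to 397 in the other dKO libraries, and Txn2 in FGF21 KO 5, at 332 CPM beside 273 to 285. In iWAT all were FGF21 KO 2, the only library of that group with a lymph node score of 4 or less, with Gstm1 at 305 CPM (others 101 to 156), Prdx3 at 187 (79.9 to 104) and Sod2 at 199.9 (60.6 to 91.0).

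The response to UCP1 loss differed between BAT and iWAT, by the test of the difference in the 40 fat libraries, for Ephx1 (log2 difference 1.32, edgeR adjusted p = 0.000966), Nqo1 (1.72, 0.00137), Sod2 (-1.36, 0.00473), Txn1 (-0.62, 0.00546), Txn2 (-0.92, 0.000901) and Txnrd2 (-1.03, 0.00518).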

How the results depend on the processing

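None of the single-gene changes followed through the alternatives changed direction. These were the calls in BAT and between the depots, with genes picked in iWAT and in UCP1 KO against dKO in BAT. Directions of other changes were not followed. Of the counts of called genes, 120 of the values under settings other than leaving out 1 library stayed within 1.5 times the main count and 14 moved. In BAT, UCP1 KO against WT gave 5 calls in place of 13 with the macrophage covariate, and dKO against FGF21 KO gave 17 in place of 10 at a threshold of 0.05 and 6 with the muscle covariate. In iWAT, where the main counts were 0, UCP1 KO against WT gave 1 at a threshold of 0.05, 5 with the lymph node covariate, 7 in the libraries of low lymph node score and 3 with DESeq2. UCP1 KO against dKO in iWAT gave 2, 4 and 3 at that threshold, with that covariate and with DESeq2. DESeq2 also gave 1 in FGF21 KO against WT in iWAT, and, in the tests over all 4 genotypes, 2 for liver and 1 for muscle. Between the depots, 12 genes in place of 6 were called without the 9 iWAT libraries of high lymph node score. The cause of these differences was not tested. Leaving out 1 library gave 0 to 1 calls in UCP1 KO against dKO in BAT, 0 to 1 in UCP1 KO against WT in iWAT and 0 to 3 in UCP1 KO against dKO in iWAT, the higher values without BAT UCP1 KO 1 and without iWAT UCP1 KO 2. Other counts stayed within 1.5 times the main one but changed, to 10 to 17 in UCP1 KO against WT and 7 to 13 in dKO against FGF21 KO in BAT, 4 to 8 (main 6) between the depots, 25 to 28 (main 27) in WT BAT against iWAT and 37 to 38 over the WT tissues. Among values of single genes, 20 gained and 33 lost a call under other settings, and 5 gained and 61 lost one when a library was left out. With 1 FGF21 KO library of low lymph node score, that subset gave no value for comparisons with FGF21 KO. No paired analysis was possible because the replicate numbers were given in accession order and the labels pair no samples.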
